A study of Saccharomyces cerevisiae and Saccharomyces paradoxus and Saccharomyces mikatae with 10 samples.

Results

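YHB1 (YGR234W) encodes flavohaemoglobin, the yeast enzyme that converts nitric oxide to nitrate, and it is described here together with FZF1 (YGL254W), the gene of a zinc-finger transcription factor, and other reported targets of that factor. The genes were chosen by systematic name: YHB1, FZF1, SSU1 (YPL092W) and YNR064C. YHB1 was selected on its own measured levels, which split the strains widely, so its levels are given as a description with no test. Of the 4 genes, YHB1 and FZF1 had values among the 4325 genes of the table used here. SSU1 and YNR064C had no row and were not analysed here, so whether the split of YHB1 extends to them could not be read from these data.

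Polyadenylated RNA was sequenced from 9 strains of 3 species: S. paradoxus N17 and N44 (both labelled wild), S. mikatae IFO1815 (wild), and 6 strains of S. cerevisiae. Of these, DBVPG1788 and YPS606 are labelled wild, and the non-wild strains are BC187 (from wine), Y9 (distillery), DBVPG6040 (fruit juice) and YJM145 (clinical). All strains were grown from a single colony at 30 °C in the same oak-sap medium, with sucrose at 1% and fructose and glucose at 0.5% each, to an optical density of 0.5. No mutation, drug or source of nitric oxide or sulfite is given in the labels for any strain. Each strain had 1 value per gene (YPS606 from 2 libraries joined by the authors), so no spread between cultures of a strain was available.

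Flavohaemoglobin carries haem and a flavin and protects yeast from nitrosative stress. SFA1 encodes a glutathione-dependent alcohol dehydrogenase that also breaks down S-nitrosoglutathione, a carrier of nitric oxide. FZF1 protein activates SSU1, whose product pumps sulfite out of the cell, and has also been reported to act on YHB1, on YNR064C, an epoxide hydrolase gene, and on the nearly identical pair YFL061W and YNL335W. Sulfite itself is an intermediate of the route by which yeast reduces sulfate to sulfide for methionine and cysteine.

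The reported targets are shown first by the letters CTATCANTT, part of an element described upstream of FZF1 targets. Capitals mark these letters on either strand, each sequence runs 5′ to 3′ on the strand of its gene, and the 25 bases on each side are in lower case. The sequences are those of the S288C reference (RefSeq, assembly R64), not of the strains measured. They are shown because the 2 genes with values differ in this respect: YHB1 has the letters and FZF1 does not.
YHB1, chrVII:959367-959425, plus strand: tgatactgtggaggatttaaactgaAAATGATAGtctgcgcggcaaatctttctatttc
SSU1, chrXVI:373387-373445, plus strand: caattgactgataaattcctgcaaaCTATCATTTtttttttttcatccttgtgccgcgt
YNR064C, chrXIV:750071-750145, minus strand: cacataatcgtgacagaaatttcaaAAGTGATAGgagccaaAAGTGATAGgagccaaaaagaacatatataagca
YFL061W, chrVI:9314-9372, plus strand: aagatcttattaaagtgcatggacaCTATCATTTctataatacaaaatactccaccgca

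The match began 512 bases before the YHB1 start codon and 381 bases before that of SSU1, and YNR064C had 2 matches, at 112 and 96 bases. YNL335W carried the same stretch as YFL061W, and neither had a row. Neither FZF1 nor SFA1 had a match within 600 bases. That window was set after the sites had been seen, and 213 of 6021 protein-coding genes (3.54%) have a match in a window of this length. Within 250 bases the share was 1.46% of genes, and there YHB1 and SSU1 had none. A match is a description of the letters and shows neither binding nor a cause.

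YHB1 lies on chromosome VII (R64, 959904 to 961103, plus strand, a single coding exon of 1200 bp). Its level, in RPKM (a level scaled to gene length and sequencing depth, a unit inferred from the values), was 196.9 in N17 and 23.7 in N44, the S. paradoxus strains. It was listed at 0 in IFO1815. In the wild S. cerevisiae strains it was 1468 in DBVPG1788 and 3.53 in YPS606. In the other S. cerevisiae strains it was 2318 in BC187, 1673 in Y9, 27.0 in DBVPG6040 and 8.16 in YJM145.

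BC187, Y9 and DBVPG1788 were thus all at or above 1468 RPKM and DBVPG6040, YJM145 and YPS606 all at or below 27.0 RPKM, with no S. cerevisiae strain between them. The highest level in S. cerevisiae was 657 times the lowest. DBVPG1788, the lowest of the upper 3 strains, had 54.3 times the level of DBVPG6040, the highest of the lower 3. N17 fell in this gap, 7.46 times below DBVPG1788 and 7.29 times above DBVPG6040, and had 8.30 times the level of N44.

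The wild label occurred on both sides of the gap, since DBVPG1788 and YPS606 are both wild S. cerevisiae and differed 416-fold. In BC187 YHB1 was the gene with rank 19 of 4320 by level, and in Y9 and DBVPG1788 it had ranks 38 and 41 of 4321. In YPS606 it had rank 4130 of 4316.

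The low levels were not at the limit of detection. Low values of the S. cerevisiae strains came in whole steps of 1 read or fragment, which gave implied totals of 57.9 to 72.3 M (megareads) for the strains with 1 library and 153 M for YPS606. On this basis the YHB1 level of YPS606 rested on about 649 reads or fragments (95% exact Poisson interval of the level, 3.27 to 3.81 RPKM), that of YJM145 on about 645 (7.55 to 8.82) and that of DBVPG6040 on about 1893 (25.8 to 28.3). The level of DBVPG1788 rested on about 113420 (1460 to 1477). These intervals cover counting error only, and no neighbours in the order of the S. cerevisiae strains overlapped. The depth of the S. paradoxus and S. mikatae libraries is unknown, because their values gave no such steps.

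**Figure D1:**
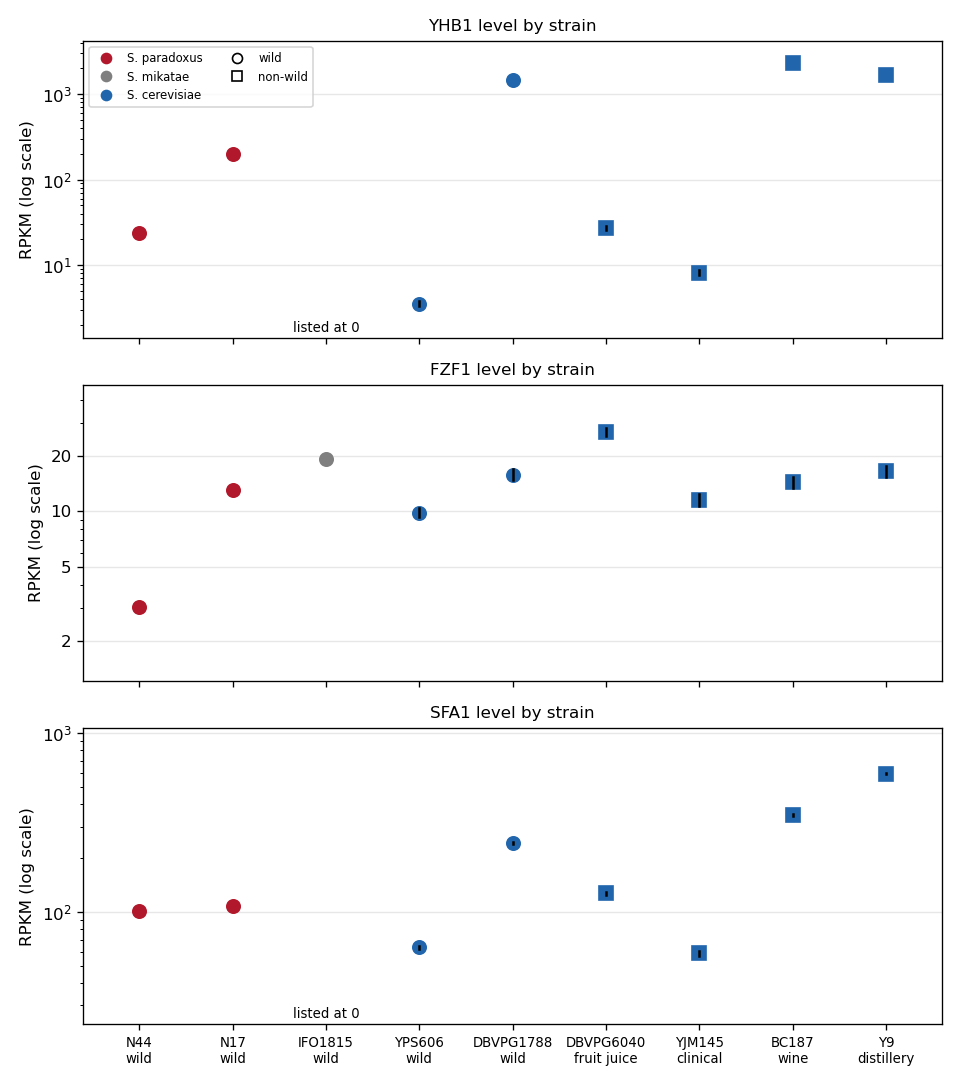
Levels of YHB1, FZF1 and SFA1 in RPKM on log axes, 1 point per strain, coloured by species, with circles for wild and squares for other labels; black bars are 95% counting intervals where the depth could be read. YHB1 runs from 3.53 to 2318 RPKM in S. cerevisiae, FZF1 from 9.83 to 26.8 RPKM and SFA1 from 58.6 to 593 RPKM.

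Among 4239 genes with a mean of at least 1 RPKM, the span of YHB1 over the 6 S. cerevisiae strains was the widest, at 8.9996 on the log2(RPKM + 1) scale that all log2 values here use. The median span of all genes was 0.76. Its largest empty stretch between neighbouring strains, 5.71, was second to that of YGR201C, at 7.65. These are the values YHB1 was chosen by, and they support nothing further.

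The value of 0 in IFO1815 cannot be read as an absence of YHB1 RNA. In that strain 423 of 4260 genes (9.93%) were listed at 0, whereas the other 8 strains had 1 to 5 such genes apiece, and on chromosome VII the share was 94 of 397 genes (23.7%). Whether YHB1 is silent in IFO1815 or its reads were not assigned was not tested.

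The genes on either side of YHB1 were then compared with it. NAS6, which encodes a chaperone of proteasome assembly, had 69.9 RPKM in N17 and 39.98 in N44, 75.0 in IFO1815, and 54.2 to 69.7 in S. cerevisiae. MIC26, the next gene, which encodes a protein of the mitochondrial inner membrane, lies 256 bases beyond YHB1 on the opposite strand. The library protocol names no step that keeps strand, so reads of the pair where they overlap cannot be told apart. MIC26 had 72.1 RPKM in N17 and 54.0 in N44, 48.7 in IFO1815, and 61.6 to 79.1 in S. cerevisiae. Both genes therefore spanned only 1.28-fold over the S. cerevisiae strains, where YHB1 spanned 657-fold. PHO81, which lies directly before YHB1, had no row.

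SPG1, further along and named after its values were seen, spanned 7.06-fold in S. cerevisiae, but its highest strains were Y9 (23.1 RPKM) and YJM145 (12.1 RPKM), which stand on opposite sides of the YHB1 gap. The median log2 difference of 395 genes of chromosome VII between each S. cerevisiae strain and the mean of the other 5 lay between −0.15 in YPS606 and 0.097 in DBVPG6040. The median of all genes lay between −0.19 and 0.18 in the same 2 strains. For YHB1 the same difference ran from −5.90 in YPS606 to 4.90 in BC187.

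**Figure D2:**
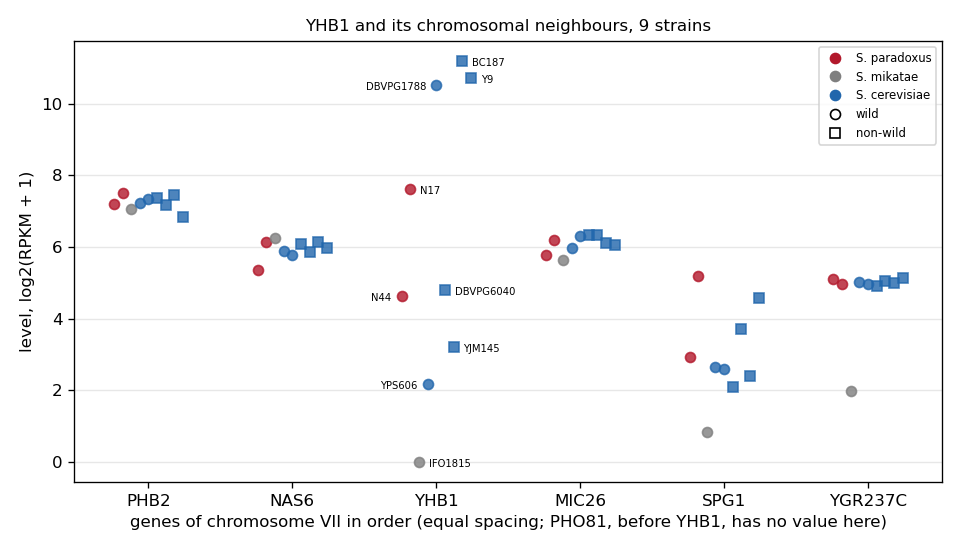
Level, as log2(RPKM + 1), of YHB1 and of genes next to it on chromosome VII, 1 point per strain, coloured by species, with circles for wild strains and squares for others. The points of NAS6 and MIC26 lie close together in all strains, whereas those of YHB1 spread from 0 in IFO1815 to 11.18 in BC187.

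FZF1, the gene of the factor itself, was measured at low levels and varied far less. It lies near the left end of the same chromosome (R64, chromosome VII, 22304 to 23203, plus strand, a single coding exon of 900 bp). Its level was 13.0 RPKM in N17 and 3.05 in N44, the S. paradoxus strains, and 19.1 in IFO1815. Among wild S. cerevisiae it was 15.8 in DBVPG1788 and 9.83 in YPS606. In the other S. cerevisiae strains it was 26.8 in DBVPG6040, 16.5 in Y9, 14.4 in BC187 and 11.5 in YJM145.

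DBVPG6040 was the highest strain and N44 the lowest, and within S. cerevisiae the span was 2.72-fold. That of the log2 values, 1.36, had rank 514 of 4239 genes. By counting error alone Y9 (15.4 to 17.6 RPKM), DBVPG1788 (14.8 to 16.8) and BC187 (13.4 to 15.3) overlapped with their neighbours in the order, whereas DBVPG6040 (25.4 to 28.2), YJM145 (10.7 to 12.4) and YPS606 (9.32 to 10.4) did not. YHB1 and FZF1 were not ordered alike: DBVPG6040 had the highest FZF1 and only 27.0 RPKM of YHB1. IFO1815 had the second highest FZF1, but its listed 0 for YHB1 cannot be read as a low level.

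Across the 9 strains FZF1 had a Pearson r of 0.14 with YHB1 (Spearman rho 0.20) on log2(RPKM + 1), rank 2167 of 4238 genes. Over the 8 strains without IFO1815 r was 0.35 (rank 589), and over the 6 S. cerevisiae strains it was 0.29 (rank 1610). All correlations here are descriptions: strains of a species share their descent, and each point is 1 value. The level of FZF1 RNA says nothing of the activity of its protein.

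**Figure D3:**
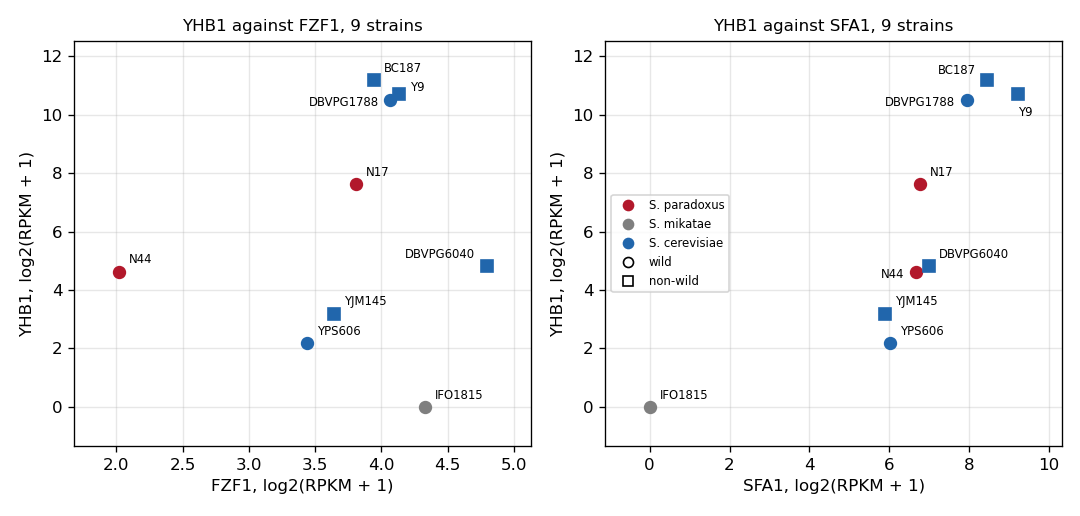
YHB1 against FZF1 (left) and against SFA1 (right), both axes as log2(RPKM + 1), 1 labelled point per strain, coloured by species, with circles for wild strains and squares for others. The FZF1 panel shows little common order (rho = 0.20), whereas YHB1 and SFA1 rank the strains nearly alike (rho = 0.95). Both values include IFO1815, which is listed at 0 for YHB1 and for SFA1.

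The first comparison set S. paradoxus against S. cerevisiae, with strains as replicates. Values times R64 gene length came in whole steps in S. cerevisiae but not in S. paradoxus. Whether the levels of both species are on the same scale was not tested. FZF1 averaged 8.02 ± 7.03 RPKM in S. paradoxus (SD, n = 2) and 15.8 ± 5.95 in S. cerevisiae (SD, n = 6). The groups overlapped, because N17 lay inside the S. cerevisiae range and N44 below it. The log2 difference was −1.09 (SE 0.44) and did not pass the threshold of 0.05 (limma adjusted p = 0.0993, by Benjamini-Hochberg over all genes). In the same fit 1022 of 4239 genes passed, which is 24.1% of all genes, 21.7% higher and 2.41% lower in S. paradoxus. Without N17 434 genes passed and without N44 639. The median difference of all genes was 0.32. Relative to that shift FZF1 did pass: centring each strain on its median gave −1.43 (limma adjusted p = 0.0403) and quantile normalisation −1.62 (0.0184), with 332 genes higher and 298 lower under the first and 336 and 320 under the second. The FZF1 value rested on N44, for without it the difference was −0.20 and without N17 it was −1.99. Fits without N44 or N17 left 1 S. paradoxus strain, so they held no spread within that species.

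The second comparison set wild against non-wild S. cerevisiae. FZF1 averaged 12.8 ± 4.21 RPKM in the wild strains (SD, n = 2) and 17.3 ± 6.65 in the others (SD, n = 4). The groups overlapped, and the difference on the log2 scale, −0.38 with an SE of 0.34, did not pass (limma adjusted p = 1.00). It was −0.060 without YPS606, −0.69 without DBVPG1788 and −0.15 without DBVPG6040. In this limma fit 0 of 4239 genes passed (0.0%), 55 had an unadjusted p under 0.05, and 1 passed without DBVPG1788. No other tool was run.

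SFA1 (YDL168W), taken from a list of nitrosative and oxidative defence genes, was the listed gene whose levels most resembled those of YHB1. It had 107 RPKM in N17 and 101 in N44, and was listed at 0 in IFO1815. In wild S. cerevisiae it had 243 in DBVPG1788 and 63.4 in YPS606. In the other strains it had 593 in Y9, 349 in BC187, 127 in DBVPG6040 and 58.6 in YJM145.

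The upper 3 S. cerevisiae strains were the same for SFA1 as for YHB1, and the lower 3 began with DBVPG6040 in both. The span was smaller, 10.1-fold, and the step between DBVPG1788 and DBVPG6040 was 1.92-fold. N17 and N44, which differed 8.30-fold in YHB1, were close to each other in SFA1. With YHB1 the gene had r = 0.82 (rho = 0.95) over 9 strains, rank 12 of 4238 genes. Over the 8 strains without IFO1815, where both genes were listed at 0, r was 0.92 and the rank was 1. Over the 6 S. cerevisiae strains r was 0.94, with rank 13. SFA1 did not pass in S. paradoxus against S. cerevisiae (log2 difference −0.70, SE 0.77, limma adjusted p = 0.542), where S. cerevisiae itself ranged from 58.6 to 593 RPKM.

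Of the 10 listed defence genes 6 were tested, SFA1 among them, and the median r of the 6 with YHB1 over the S. cerevisiae strains was 0.030, against 0.15 for all genes. The other 5 had r from −0.34 to 0.46. Among those named after their values were seen, SOD1, the copper and zinc superoxide dismutase gene, had r = 0.46, SOD2, its mitochondrial counterpart, −0.20, and CCP1, the cytochrome c peroxidase gene, −0.34. Against S. cerevisiae, 2 of the 6 rose in S. paradoxus and none fell, where 24.1% of all genes passed: TRX2, a thioredoxin gene, with 1106 ± 465.7 and 516 ± 128 RPKM (SD, n = 2 and 6, limma adjusted p = 0.0335), and YAP1, the gene of an oxidative stress regulator, with 115 ± 45.7 and 56.5 ± 11.3 RPKM (limma adjusted p = 0.0247). After median centring neither passed (limma adjusted p = 0.132 and 0.0829), nor without N17 (0.271 and 0.229). TRX2 also did not pass without YPS606, DBVPG1788, YJM145 or Y9 (0.0517 to 0.0589), and YAP1 not after quantile normalisation (0.0615) or with S. mikatae added to S. paradoxus (0.135).

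Genes of the route that makes and uses sulfite, the substrate that SSU1 exports, were compared next. Of 11 listed genes 10 were tested; MET17 had no value in YPS606 and Y9. Their median r with YHB1 was 0.66 over the 6 S. cerevisiae strains, against 0.15 for all genes, and 0.65 over the 8 strains without IFO1815, against 0.037. Over all 9 strains it was 0.14, close to the 0.15 of all genes. Of the 10 tested genes 6 had their highest level in IFO1815.

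Apart from MET22, SUL2 and MET8, the genes of this route named here were picked after their values were seen. MET14, which encodes adenylylsulfate kinase, had the highest r of the list over S. cerevisiae, 0.85. Its level was 38.3 RPKM in N17 and 24.8 in N44, and 85.8 in IFO1815. It was 46.9 in DBVPG1788 and 29.8 in YPS606, and among the non-wild strains 63.4 in BC187, 50.8 in Y9, 44.1 in DBVPG6040 and 22.0 in YJM145. Its 3 highest S. cerevisiae strains were those of YHB1, but DBVPG1788 and DBVPG6040 were nearly level and the span was only 2.89-fold. MET16 (PAPS reductase), MET10 (a sulfite reductase subunit) and MET22 (a nucleotidase of the same route) had r of 0.80, 0.74 and 0.72. MET5, the other sulfite reductase subunit, had 0.20, and SUL1, a sulfate permease, 0.073. SUL2, the other permease, had 0.59. Over all 9 strains SUL2 had the highest r of the list, 0.67. There MET22 had 0.43, MET10 0.26, MET16 0.22, MET14 0.20, SUL1 −0.14 and MET5 −0.33. The genes of this route share their regulation, so they are not separate pieces of evidence. In S. paradoxus against S. cerevisiae 1 of the 10 rose and none fell, where 24.1% of all genes passed. The gene was MET8, which encodes an enzyme of sirohaem synthesis, with 31.8 ± 8.12 and 18.1 ± 3.92 RPKM (SD, n = 2 and 6, limma adjusted p = 0.0453). It did not pass after quantile normalisation (limma adjusted p = 0.262) or median centring (0.179), with S. mikatae added (0.0609), or without N17 (0.304), N44 (0.0596), YPS606 (0.0563), DBVPG6040 (0.0541), BC187 (0.0781) or Y9 (0.0673).

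Haem genes were included because flavohaemoglobin carries haem. Of 8 listed genes 7 were tested, and their median r with YHB1 over S. cerevisiae was 0.055, against 0.15 for all genes. Over all 9 strains it was 0.51, against 0.15, and over the 8 strains without IFO1815 it was 0.054, against 0.037. HEM3 (porphobilinogen deaminase) and HEM15 (ferrochelatase, the last step) had the highest values over S. cerevisiae, 0.66 and 0.58. Between the species 2 of the 7 passed, 1 in each direction, where 24.1% of all genes passed. HEM4 (uroporphyrinogen III synthase) rose in S. paradoxus, with 47.2 ± 2.505 and 26.7 ± 3.76 RPKM in S. paradoxus and S. cerevisiae (SD, n = 2 and 6, limma adjusted p = 0.0128). HEM15 fell, with 91.9 ± 15.4 and 171 ± 32.4 RPKM (limma adjusted p = 0.0213). HEM4 did not pass after median centring (limma adjusted p = 0.0545) or without N17 (0.0784), and HEM15 did not pass without N17 (0.0505) or N44 (0.127). Of 7 listed haem and oxygen regulators 5 were tested and none passed, against the same 24.1% of all genes, with limma adjusted p from 0.100 for ROX1 to 0.820 for HAP5. Their median r with YHB1 over S. cerevisiae was −0.023, from −0.60 for HAP4 to 0.31 for HAP2. ROX1, HAP4 and HAP5 were named after their values were seen.

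**Figure D4:**
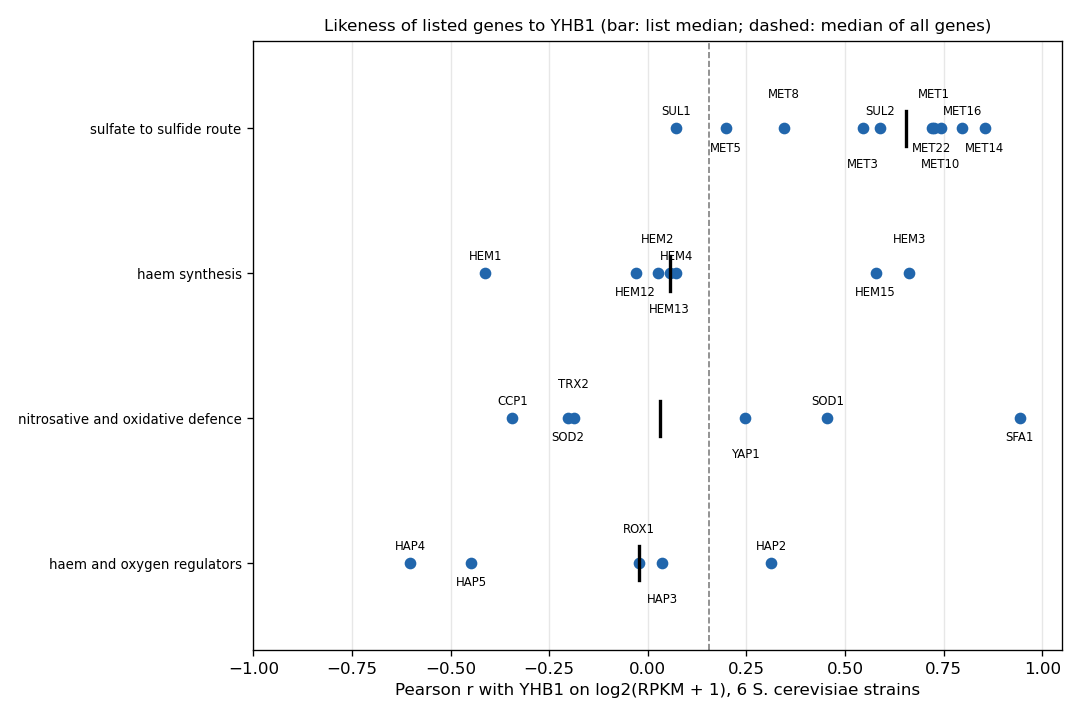
Pearson r with YHB1 on log2(RPKM + 1) over the 6 S. cerevisiae strains for the tested genes of 4 lists, 1 point per gene; the bar marks each list's median and the dashed line the median of all genes, 0.15. SFA1 stands at 0.94, apart from the rest of its list, and the sulfate to sulfide genes lie mostly above 0.5.

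The 5 genes with the highest r to YHB1 over the 9 strains were YLR416C (0.89), CIA2 (0.88), SPO73 (0.88), YOR343C (0.87) and OCA2 (0.86). This order includes IFO1815, which is listed at 0 for YHB1. Over the 8 strains without it their ranks were 5, 12, 6, 11 and 21 of 4238 genes. Over the 6 S. cerevisiae strains they were 44, 25, 28, 97 and 43. YLR416C was low in every strain, from 1.13 RPKM in IFO1815 to 5.65 in DBVPG1788. CIA2 acts in cytosolic iron-sulfur protein assembly, and SPO73 is known from spore wall formation. Their spans in S. cerevisiae were small beside that of YHB1, from 1.51-fold for CIA2 to 4.85-fold for YOR343C. CIA2 had 47.1 RPKM in N17, 48.8 in N44 and 30.7 in IFO1815, and from 37.4 in YPS606 to 56.4 in DBVPG1788 in S. cerevisiae. The 2 genes with the highest r to FZF1 over the 9 strains were YMR265C (0.95) and PRM15 (0.89). Over the 6 S. cerevisiae strains r was 0.97 for YMR265C (rank 21) and 0.46 for PRM15 (rank 1956). There PRM15 spanned only 1.31-fold.

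The genes directly beside FZF1 were ZRT1 and HXK2. ZRT1, the high-affinity zinc transporter gene, ends 195 bases before FZF1 on the same strand, and had 1248 RPKM in N17, 954 in N44 and 366 in IFO1815. It spanned 10.4-fold in S. cerevisiae, with 102 in Y9 and 127 in DBVPG6040 as the lowest levels and 1059 in YJM145 as the highest. HXK2, a hexokinase gene on the other side, spanned 1.91-fold in S. cerevisiae.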

How the data were processed

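The values were deposited by the authors as 1 column per strain and are treated as RPKM, a unit inferred from the values: in each S. cerevisiae strain 93.1% to 96.4% of 56 to 71 low values times the R64 gene length were whole multiples of 1 step, with a tolerance of 0.05, against 26.6% to 37.5% in the other species. Per the submitters' processing notes, cutadapt, TopHat, Cufflinks and build R64 were used, with no role stated. Versions, counting rules and strand use are not given in the sources used here. The 2 YPS606 libraries were analysed together, per the labels. Sums of the values ranged from 356258 to 522913.

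Of 4325 genes, 4284 matched R64, 4260 had a value in every strain and 4239 with a mean of at least 1 were tested on log2(RPKM + 1), on which scale changes of low genes are understated. limma 3.58.1 (lmFit, eBayes with a trend, R 4.3.3) was used two-sided across all genes with Benjamini-Hochberg adjustment at 0.05, and was checked on generated data. The fits planned for SSU1 and YNR064C could not be made. The limma p-values set each group difference against the spread between strains. Leaving out N17 or N44, or in the second comparison YPS606 or DBVPG1788, left 1 strain in a group. There the spread came from the other group alone. Strains were treated as independent, although those of a species share their descent. The named genes were the members, list genes, neighbours and, by Pearson r, the 5 genes most like YHB1 and the 2 most like FZF1. Members and lists were chosen with earlier results of these data known. Alternatives covered the pseudocount, filters, scaling, S. mikatae, an exact permutation test and leaving out each strain.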

Additional observations from a re-analysis of the deposited data

How the results depend on the processing

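No paired analysis was possible because each column is a different strain, and the replicate numbers, given in accession order, tie no strains of different groups to each other. Over 146 combinations of result and alternative 0 turned in direction, and in 32 a pass was gained or lost or a count of genes moved. Many could not turn. Counts of genes called have no direction, and the filters and the permutation test left the log2 differences unchanged. Against 1022 genes called between S. paradoxus and S. cerevisiae, quantile normalisation gave 656, median centring 630, and adding S. mikatae to S. paradoxus 265; leaving out each strain gave 434 (without N17) to 1180 (without DBVPG6040), with 639 without N44. The FZF1 difference became −1.62 with quantile normalisation and −1.43 with median centring, passing in both, and −0.62 with S. mikatae included (limma adjusted p = 0.437). Leaving out each strain gave −1.99 (without N17) to −0.20 (without N44), each with 1 S. paradoxus strain left. With a S. cerevisiae strain left out, limma adjusted p was 0.0848 to 0.137. The exact permutation test over 28 arrangements gave p = 0.107, where 0.0357 is the smallest possible. For wild against non-wild S. cerevisiae, leaving out each strain gave 0 to 1 genes (1 without DBVPG1788) and FZF1 differences of −0.69 to −0.060, and the exact permutation p was 0.400 (smallest possible 0.0667). The r of SFA1 with YHB1 ran from 0.79 to 0.92 and that of FZF1 from 0.038 to 0.35 when each strain was left out. Of the 5 list genes called, MET8 lost the call in 9 of 14 alternatives, TRX2 in 6, YAP1 in 4 and HEM4 and HEM15 in 2 each. Those alternatives, the ones for SFA1 and the FZF1 correlations with a strain other than IFO1815 left out were added after the data were seen. SSU1 and YNR064C, without values, were not fitted under any setting. With 1 value per strain, differences between single strains have no replicate error.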
